A study of Mus musculus with 10 samples.

Results

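The IL-6 family genes described here are 3 ligands, Il6, Osm and Lif, and 4 receptor chains, Il6ra, Il6st, Osmr and Lifr. They were taken by gene identifier from the gene tables of 6 RNA-seq libraries of mouse dendritic cells. These are 7 of the 41813 genes in the tables, and 6 of the 7 passed the filter on low counts that left 13946 genes to test. The cells were differentiated from bone marrow and recorded as CD11c+ MHCIIhigh. The groups compared were 3 libraries titled activated and 3 titled non-activated. By the series design, cells of both groups received LPS, a bacterial ligand of TLR4, and shared a culture with OT-II CD4+ T cells for 24 h. The activated cells had in addition been pulsed with OVA323-339, the ovalbumin peptide that the OT-II receptor recognises, and the non-activated cells had not. The sample labels instead give LPS to the activated cells alone, so the groups are called activated and non-activated, as in the titles. No genetic change of the dendritic cells is given in the labels, and whether replicates came from separate animals or cultures is not stated. All p-values therefore measure the spread between these samples only, which may be technical.

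Cytokines of this family signal through receptor complexes that contain gp130, the product of Il6st. IL-6 first binds the IL-6 receptor alpha chain (Il6ra), whereas LIF uses the LIF receptor (Lifr) and mouse oncostatin M mainly the oncostatin M receptor (Osmr), each paired with gp130. The complexes activate Janus kinases and STAT3, and SOCS3 is a feedback inhibitor bound to gp130. Dendritic cells are known as a source of IL-6 for T cells, and IL-6 together with TGF-beta directs naive CD4 T cells towards the Th17 fate.

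Summed expected counts were 21338012 to 27404937 in the activated libraries and 23441520 to 25789923 in the non-activated libraries. All 13 dendritic cell markers were detected in every library, with summed levels of 15400 to 20000 CPM (reads scaled to library size with TMM factors) in activated and 16700 to 20100 CPM in non-activated cells. By edgeR, 6 of these 13 were higher in activated cells and 1 was lower, against 15.9% and 11.7% of all genes tested. The 18 T cell markers summed to 40.0 to 68.3 CPM in activated libraries, against 42.7 to 63.4 CPM in non-activated libraries. Cd28 and Icos had lower means in activated cells, and the other markers of the list had higher means. Cd28 stood at 9.96, 22.6 and 19.2 CPM in activated replicates 1, 2 and 3, against 17.2, 42.3 and 38.4 CPM in the non-activated replicates, and did not pass (edgeR adjusted p = 0.10), and Icos was lower (edgeR adjusted p = 0.00354). The other 16 T cell markers summed to 51.7, 15.6 and 16.7 CPM in activated replicates 1, 2 and 3, against 9.33, 9.55 and 7.65 CPM in the non-activated replicates, a sum taken after the values were seen. Of these, Lck, a T cell receptor kinase, stood at 3.92 to 5.17 CPM in activated libraries, against 0.685 to 1.22 CPM in non-activated libraries (4.37-fold higher, edgeR adjusted p = 0.00109). Zap70 and Cd247, a further kinase and the zeta chain of the receptor, were higher as well (edgeR adjusted p = 0.0331 and 0.0425). Cd3e, another receptor chain, stood at 1.90, 0.245 and 0.408 CPM in activated replicates 1, 2 and 3 and at 0.152 to 0.243 CPM in non-activated libraries. The 10 markers of activated helper T cells summed to 18.8, 4.95 and 6.04 CPM in activated replicates 1, 2 and 3, against 2.70 to 3.24 CPM in non-activated libraries. Il2, a cytokine of activated T cells, stood at 8.62, 0.490 and 0.531 CPM in activated replicates 1, 2 and 3, against 0, 0 and 0.0811 CPM in the non-activated replicates, and Cd3g was at 0 in activated replicates 2 and 3. Activated replicate 1 was thus the library with most T cell receptor and helper cytokine RNA. It also differed in dendritic cell markers. Its Itgax (198 CPM, against 442 and 328 CPM in activated replicates 2 and 3) and H2-Ab1 (2190, against 3120 and 3030 CPM) were the lowest of the group. Its Ccr7 (2070, against 1480 and 1840 CPM) and Cd86 (631, against 478 and 485 CPM) were the highest. The 7 B cell markers summed to 2.33 to 4.01 CPM in activated cells, against 0.761 to 1.30 CPM in non-activated cells. Of these, 2 were tested, and only Cd79b was higher (edgeR adjusted p = 0.00304). It stood at 1.14 to 2.84 CPM in activated libraries, against 0.042 to 0.284 CPM in non-activated libraries. The 8 macrophage markers summed to 1420 to 1940 CPM in activated cells, against 1500 to 1880 CPM in non-activated cells. Mast cell and basophil markers, 8 in number, summed to 146 to 203 CPM in activated cells, against 135 to 178 CPM in non-activated cells. Within that sum Hdc was 1.89-fold higher in activated cells (edgeR adjusted p = 0.006). Kit was 2.07-fold and Gata2 3.3-fold lower (edgeR adjusted p = 0.00505 and 0.000363). Mcpt8, Cpa3, Fcer1a, Ms4a2 and Prss34 reached at most 0.520 CPM in a library. The 10 stromal markers summed to 19.5 to 21.6 CPM in activated libraries, against 15.0 to 18.9 CPM in non-activated libraries, with Col1a1, a fibroblast collagen, at 0 in all 6. Of the 5 stromal markers tested, only Dcn was higher (edgeR adjusted p = 0.0137), and 4 did not pass. Dcn stood at 6.54 to 9.66 CPM in activated libraries, against 4.23 to 5.08 CPM in non-activated libraries. NK cell and neutrophil markers reached at most 1.57 CPM in sum in an activated library, against 1.43 CPM in a non-activated one. The sums of the helper T cell, B cell and stromal markers, and of the T cell markers other than Cd28 and Icos, were higher in every activated library than in any non-activated one, and their part in the differences between groups was not tested. In these bulk samples fewer cells of a type and less RNA per cell cannot be told apart.

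Of the 6 IL-6 family members tested, 3 were higher in activated cells (Il6, Lif and Lifr) and 3 were lower (Osm, Il6ra and Il6st), by edgeR's quasi-likelihood test with Benjamini-Hochberg adjustment. Over all genes tested, 27.6% passed in either direction, 15.9% higher and 11.7% lower. With the replicate number as a block, 37.2% of all genes passed, and the same 6 members passed in the same directions. The median log2 fold change was 0.20 over the 6 members and 0.01 over all genes tested. Each of the 6 also had CPM values that did not overlap between the groups, as did 44.7% of all genes tested. The ligands did not move together, and neither did the receptor chains.

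**Figure D1:**
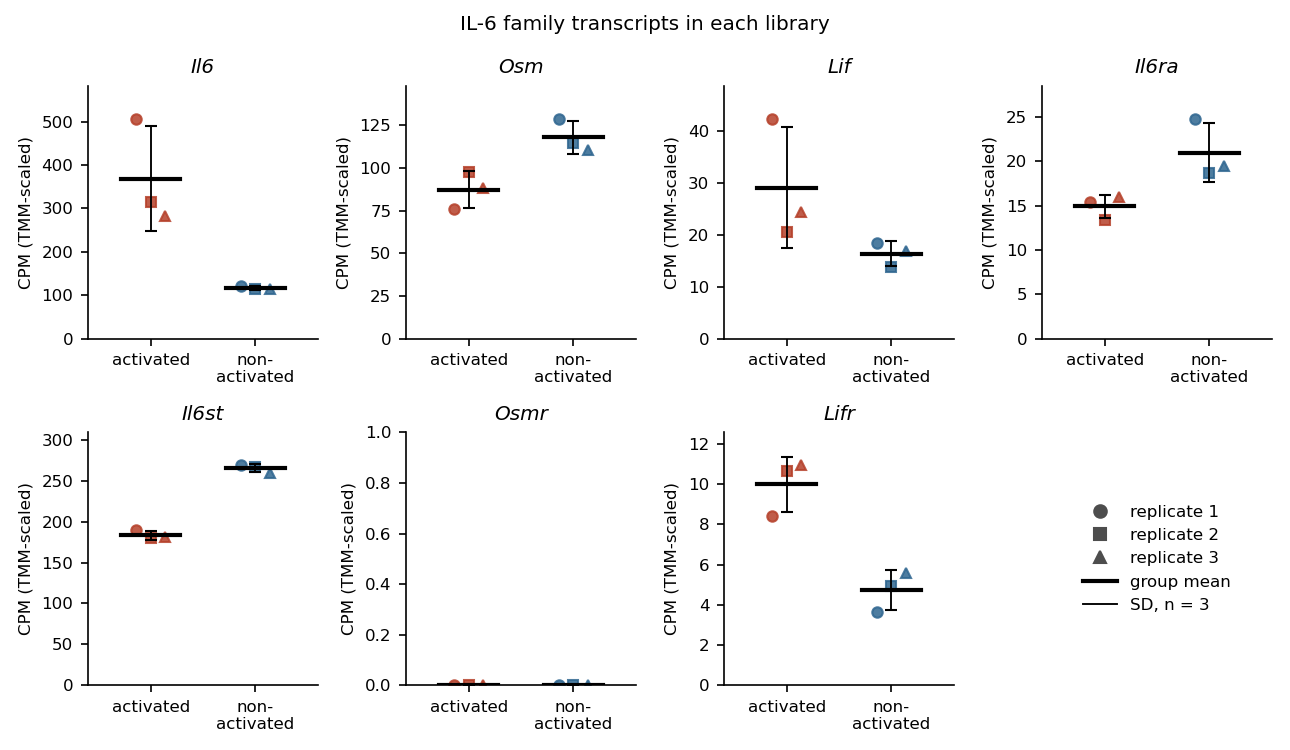
Normalised level (CPM, with a linear axis for each gene) of the IL-6 family genes, with a point per library, activated left of non-activated, thick lines for group means and bars for the SD (n = 3). Il6 is highest in activated replicate 1 (506 CPM), the groups do not overlap for the 6 detected genes, and Osmr is at 0 throughout.

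The Il6 and Lif promoters are given because these genes were the ligands higher in activated cells. Il6 lies at chr5:30013114-30019975 and Lif at chr11:4257568-4272514 of GRCm38.p6, and Osm lies at chr11:4236785-4241026, 16.5 kb from Lif with 0 annotated genes between them. The windows are from RefSeq, GRCm38.p6, 250 bases before to 50 bases after the gene start, chr5:30012864-30013163 on the plus strand for Il6 and chr11:4257318-4257617 on the plus strand for Lif. They run 5′ to 3′, with matches to the motifs searched in capitals.
Il6: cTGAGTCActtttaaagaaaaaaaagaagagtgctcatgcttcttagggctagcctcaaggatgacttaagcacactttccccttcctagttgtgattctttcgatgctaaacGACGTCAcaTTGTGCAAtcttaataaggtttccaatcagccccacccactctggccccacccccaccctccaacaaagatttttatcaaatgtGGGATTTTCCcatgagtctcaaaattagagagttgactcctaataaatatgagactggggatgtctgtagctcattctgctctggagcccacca
Lif: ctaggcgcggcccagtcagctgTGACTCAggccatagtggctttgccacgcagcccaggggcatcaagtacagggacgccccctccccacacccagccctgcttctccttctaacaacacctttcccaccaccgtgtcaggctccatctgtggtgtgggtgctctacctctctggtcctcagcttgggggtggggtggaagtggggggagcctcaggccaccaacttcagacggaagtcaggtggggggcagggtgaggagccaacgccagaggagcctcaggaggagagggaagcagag

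The Il6 window held one match each to the kappaB pattern (GGGA, any base, TTTCC), the C/EBP pattern TTNNGNAA, the cyclic AMP response element pattern GACGTCA and the AP-1 pattern TGANTCA, searched on both strands. They began at positions -44, -128, -137 and -249 from the start. Of 32851 promoter windows of the same length, 0.411% held the kappaB pattern, 40.7% the C/EBP pattern, 3.21% the GACGTCA pattern and 7.81% the AP-1 pattern. The Lif window held only an AP-1 match, at -228. The same search covered the STAT pattern TTCNNNGAA, found in 8.30% of all windows, and TATAAA, found in 13.6%. These matches describe letters in the window and not bound sites. GC content was 44.0% in the Il6 window and 63.7% in the Lif window, against a median of 52.7% over all windows.

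Il6, the founding cytokine of the family, had the highest TPM of the members in both groups and the largest increase. Its level was 506, 315 and 282 CPM in activated replicates 1, 2 and 3, against 122, 114 and 113 CPM in the non-activated replicates. The lowest activated library was thus well above the highest non-activated one. Il6 averaged 368 ± 121 CPM in activated cells, against 116 ± 4.73 CPM in non-activated cells (SD, n = 3 each), 3.17-fold higher (log2 fold change 1.66, SE 0.20, 95% confidence interval 1.20 to 2.13, edgeR adjusted p = 0.00063). Among the 2216 genes that were higher, 427 had a larger change than Il6. The spread differed between the groups, with a coefficient of variation of 32.8% in activated and 4.07% in non-activated libraries, where the medians over all tested genes were 12.3% and 9.78%. Activated replicate 1, the library with most T cell receptor RNA, was also the one with most Il6. Its dendritic cell markers differed too, as given above, and the part of either in the Il6 level was not tested. Without activated replicate 1 the log2 fold change was 1.34 (edgeR adjusted p = 4.16e-05).

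Osm encodes oncostatin M, a ligand made by activated myeloid cells and T cells. It stood at 76.0, 98.0 and 88.2 CPM in activated replicates 1, 2 and 3, against 129, 115 and 111 CPM in the non-activated replicates. All activated libraries were below all non-activated ones, with the smallest gap between 98.0 and 111 CPM. The means were 87.4 ± 11.0 CPM in activated cells, against 118 ± 9.57 CPM in non-activated cells (SD, n = 3 each), 1.35-fold lower (log2 fold change -0.43, SE 0.11, edgeR adjusted p = 0.0195). Without non-activated replicate 1 the difference was -0.37 and no longer passed (edgeR adjusted p = 0.0665).

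Lif encodes leukaemia inhibitory factor, known for maintaining mouse embryonic stem cells in culture. It stood at 42.4, 20.6 and 24.5 CPM in activated replicates 1, 2 and 3, against 18.4, 13.7 and 16.9 CPM in the non-activated replicates. Activated replicate 1 was far above the rest, and activated replicate 2 was 20.6 CPM against 18.4 CPM in the highest non-activated library. The means were 29.1 ± 11.6 CPM in activated cells, against 16.4 ± 2.38 CPM in non-activated cells (SD, n = 3 each), 1.78-fold higher (log2 fold change 0.84, SE 0.25, 95% confidence interval 0.25 to 1.42, edgeR adjusted p = 0.0404). The call was the least secure of the 6: it was lost when any library other than activated replicate 2 was left out, with edgeR adjusted p from 0.0591 to 0.131. Without activated replicate 1, which had most T cell receptor RNA, the log2 fold change was 0.44 (edgeR adjusted p = 0.0642). The part of that RNA, or of that library's dendritic cell marker levels, was not tested. Osm and Lif, neighbours on chromosome 11, thus differed in opposite directions.

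The promoters of Il6ra and Il6st are given next, because the ligand-binding chain and the shared chain of the IL-6 receptor were both lower in activated cells. Il6ra lies at chr3:89869324-89913196 and Il6st at chr13:112464070-112506860. The windows, again from RefSeq on GRCm38.p6, are chr3:89913147-89913446 on the minus strand for Il6ra and chr13:112463820-112464119 on the plus strand for Il6st, with motif matches in capitals.
Il6ra: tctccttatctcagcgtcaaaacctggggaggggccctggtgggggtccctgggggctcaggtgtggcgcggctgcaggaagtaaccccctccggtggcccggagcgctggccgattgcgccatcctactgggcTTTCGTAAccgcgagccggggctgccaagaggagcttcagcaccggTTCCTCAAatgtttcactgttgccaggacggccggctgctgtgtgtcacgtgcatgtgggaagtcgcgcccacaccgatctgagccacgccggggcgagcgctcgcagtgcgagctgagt
Il6st: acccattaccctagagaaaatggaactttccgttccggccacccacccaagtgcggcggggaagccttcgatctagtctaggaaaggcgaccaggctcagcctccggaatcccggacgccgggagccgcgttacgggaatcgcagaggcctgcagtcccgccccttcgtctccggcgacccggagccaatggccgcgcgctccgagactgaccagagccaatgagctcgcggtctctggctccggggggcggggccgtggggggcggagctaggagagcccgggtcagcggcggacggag

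Both windows were rich in CG pairs, with 25 in Il6ra and 33 in Il6st, against a median of 7 over all windows and 3 in Il6. Lif had 7, undetected Osmr had 22, and Lifr, higher in activated cells, had 53 and 4 in its 2 windows. The Il6ra window held matches to the C/EBP pattern at -116 and -70, and no pattern searched was found in the Il6st window. None was found in the 2 Lifr windows, chr15:7129322-7129621 and chr15:7140292-7140591 on the plus strand. The Osmr window, chr15:6874264-6874563 on the minus strand, held an AP-1 match at +3, counted from the start used for that window. Windows of these 2 genes lie inside the gene spans given below, so the outer gene starts were not searched. The patterns say nothing of which factors were active in these cells.

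Il6ra encodes the chain that binds IL-6 and is also released as a soluble receptor. It stood at 15.4, 13.4 and 15.9 CPM in activated replicates 1, 2 and 3, against 24.8, 18.7 and 19.5 CPM in the non-activated replicates. Non-activated replicate 1 was the highest library. The means were 14.9 ± 1.34 CPM in activated cells, against 21.0 ± 3.31 CPM in non-activated cells (SD, n = 3 each), 1.41-fold lower (log2 fold change -0.49, SE 0.13, edgeR adjusted p = 0.0269). Without non-activated replicate 1 the difference was -0.36 (edgeR adjusted p = 0.0876), and leaving out activated replicate 2 or non-activated replicate 3 also ended the call (edgeR adjusted p = 0.0725 and 0.0515).

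Il6st, the gp130 gene shared by the receptors of these ligands, had the tightest values of the members. It stood at 189, 180 and 181 CPM in activated replicates 1, 2 and 3, against 269, 267 and 260 CPM in the non-activated replicates. The groups were far apart for their spread, with coefficients of variation of 2.91% in activated and 1.81% in non-activated libraries. The means were 183 ± 5.33 CPM in activated cells, against 265 ± 4.81 CPM in non-activated cells (SD, n = 3 each), 1.45-fold lower (log2 fold change -0.53, SE 0.07, 95% confidence interval -0.69 to -0.37, edgeR adjusted p = 0.00095). The call held without each library in turn (edgeR adjusted p from 0.00117 to 0.00619).

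Lifr encodes the receptor chain for LIF and was the only receptor member higher in activated cells. It stood at 8.44, 10.6 and 10.9 CPM in activated replicates 1, 2 and 3, against 3.65, 4.96 and 5.59 CPM in the non-activated replicates. On CPM every activated library was above every non-activated one, and replicate 1 was the lowest in each group. On TPM the groups overlapped, at 1.59, 2.66 and 2.74 TPM in activated replicates 1, 2 and 3, against 0.87, 1.24 and 1.65 TPM in the non-activated replicates. The means were 10.0 ± 1.37 CPM in activated cells, against 4.74 ± 0.99 CPM in non-activated cells (SD, n = 3 each), 2.11-fold higher (log2 fold change 1.08, SE 0.20, 95% confidence interval 0.62 to 1.53, edgeR adjusted p = 0.00473). The call held without each library in turn (edgeR adjusted p from 0.00455 to 0.0216). Activated replicate 1, with most T cell receptor RNA, had the lowest Lifr level of the activated libraries. The part of that RNA in the Lifr level was not tested.

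Osmr, the specific chain of the oncostatin M receptor, had 0 counts in all 6 libraries and was not tested. A count of 0 allows up to 0.109 to 0.141 CPM in the activated and 0.116 to 0.128 CPM in the non-activated libraries, taking 3 counts as the limit, which covers counting error only. Osmr lies at chr15:6813568-6874968 and Lifr at chr15:7090610-7197489, 216 kb apart, with 3 annotated genes between them, of which 0 are protein coding. Of these neighbours Lifr was detected in every library and Osmr in none.

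Levels of different genes were compared as TPM, which scales reads by transcript length and library size. The order of mean TPM was the same in both groups, Il6 first, then Osm, Il6st, Lif, Il6ra and Lifr, with Osmr at 0. In activated cells the means were 554 ± 171 TPM for Il6, 61.9 ± 8.24 for Osm, 42.1 ± 6.62 for Il6st, 16.1 ± 6.13 for Lif, 4.72 ± 0.79 for Il6ra and 2.33 ± 0.64 for Lifr (SD, n = 3). In non-activated cells they were 166 ± 4.30 TPM for Il6, 83.6 ± 3.64 for Osm, 52.1 ± 0.63 for Il6st, 8.05 ± 1.40 for Lif, 6.52 ± 0.88 for Il6ra and 1.25 ± 0.39 for Lifr (SD, n = 3). Neighbours in that order had ranges that did not overlap, except for Lif and Il6ra in non-activated cells. Among all genes of a library by TPM, Il6 ranked 148, 304 and 326 in activated replicates 1, 2 and 3, against 795, 886 and 860 in the non-activated replicates.

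The balance between members was compared as the ratio of TPM within a library, which does not depend on library scaling. Il6 over Osm was 14.2, 6.88 and 6.83 in activated replicates 1, 2 and 3, against 1.94, 1.99 and 2.01 in the non-activated replicates, a log2 difference of 2.14. Il6 thus exceeded Osm in every library, and by more in each activated library. Osm over Lif was 2.28, 5.92 and 4.71 in activated replicates 1, 2 and 3, against 9.34, 12.3 and 10.0 in the non-activated replicates, a log2 difference of -1.39. Il6 over Lif was 32.5, 40.7 and 32.2 in activated replicates 1, 2 and 3, against 18.1, 24.5 and 20.2 in the non-activated replicates, a log2 difference of 0.75. Among the ligands, the share of Il6 was therefore larger against both others in each activated library.

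Between receptor chains, Lifr over Il6st was 0.0460, 0.0593 and 0.0583 in activated replicates 1, 2 and 3, against 0.0165, 0.0241 and 0.0316 in the non-activated replicates, a log2 difference of 1.22. On the CPM scale, which leaves transcript length out, that difference was 1.63. The ratio Il6ra over Il6st was 0.132, 0.0893 and 0.119 in activated replicates 1, 2 and 3, against 0.143, 0.115 and 0.118 in the non-activated replicates, and overlapped between the groups (log2 difference -0.15, exact permutation p = 0.60). Both IL-6 receptor chains were lower in CPM, and their ratio was not shown to differ. For each of the other 4 ratios the groups did not overlap, with exact two-sided permutation p = 0.10, the smallest that 3 against 3 libraries can give, and 0.125 after adjustment over the 5 ratios.

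**Figure D2:**
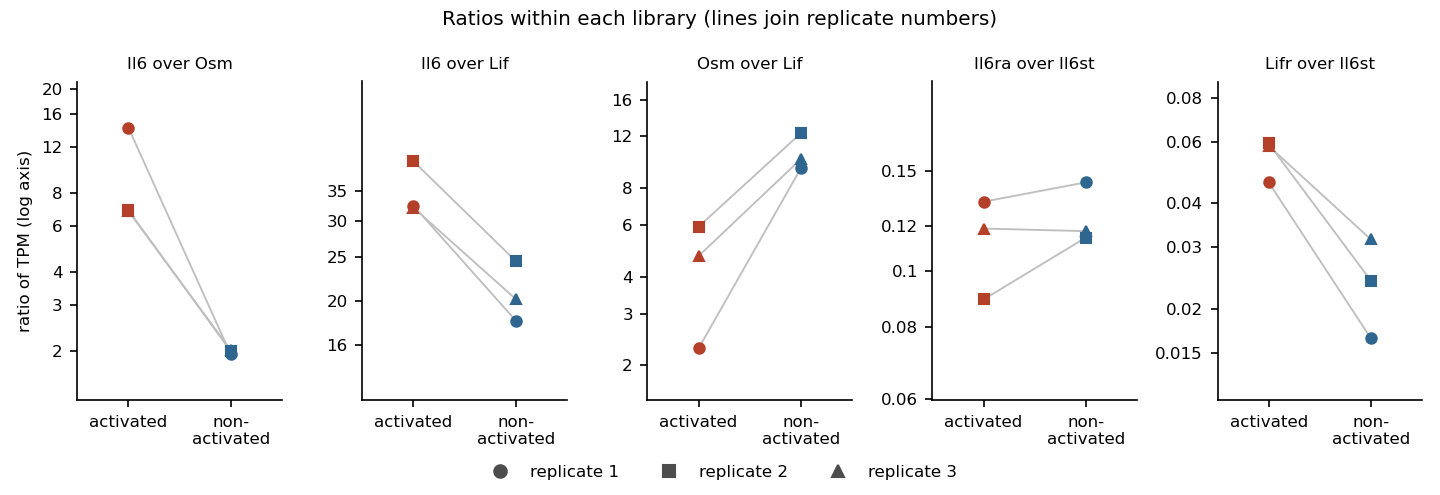
Ratio of TPM values within each library (log axis) for 5 pairs of IL-6 family genes, with a point per library and grey lines joining equal replicate numbers. Il6 over Osm lies at 6.83 to 14.2 in activated and 1.94 to 2.01 in non-activated cells, and Il6ra over Il6st overlaps between the groups.

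The deposited tables also give a length for each gene, the mean of its transcripts weighted by their estimated abundance, which moves with the isoform mix. Il6 was assigned 1141, 1152 and 1155 nt in activated replicates 1, 2 and 3, against 1190, 1214 and 1240 nt in the non-activated replicates, a mean difference of -5.40%. For Lif the lengths were 2793, 2759 and 2902 nt in activated replicates 1, 2 and 3, against 2950, 3246 and 3391 nt in the non-activated replicates, a mean difference of -11.8%. Il6 and Lif, the ligands with higher RNA in activated cells, were the 2 of 6 tested members whose lengths did not overlap between groups, both shorter in activated cells (exact two-sided permutation p = 0.10 each, adjusted p = 0.30 over the 6 members). Of 11022 tested genes with more than a single transcript, lengths did not overlap in 12.4%, and 5.85% were shorter in activated cells. The median absolute difference was 2.83%.

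Il6st was assigned 7987, 6017 and 6034 nt in activated replicates 1, 2 and 3, against 7422, 7839 and 7884 nt in the non-activated replicates. Activated replicate 1 was the longest of all 6, and the other 2 activated libraries were the shortest. Lifr was assigned 7738, 6017 and 6247 nt in activated replicates 1, 2 and 3, against 6120, 6088 and 5405 nt in the non-activated replicates. For both receptors the groups overlapped (exact permutation p = 0.40 for Il6st and 0.30 for Lifr). On TPM, which divides by these lengths, Il6st stood at 34.6, 44.9 and 47.0 in activated replicates 1, 2 and 3, against 52.6, 51.4 and 52.2 in the non-activated replicates. The coefficient of variation of Il6st in activated libraries was 15.7% on TPM and 2.91% on CPM. With limma on log2(TPM + 1) the calls of Il6st (-0.31, adjusted p = 0.123), Lifr (0.56, adjusted p = 0.0992) and Il6ra (-0.40, adjusted p = 0.143) were lost, with the same direction. Single reads of 60 nt give limited information on transcripts of a gene, and the share of each transcript was not analysed here.

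**Figure D3:**
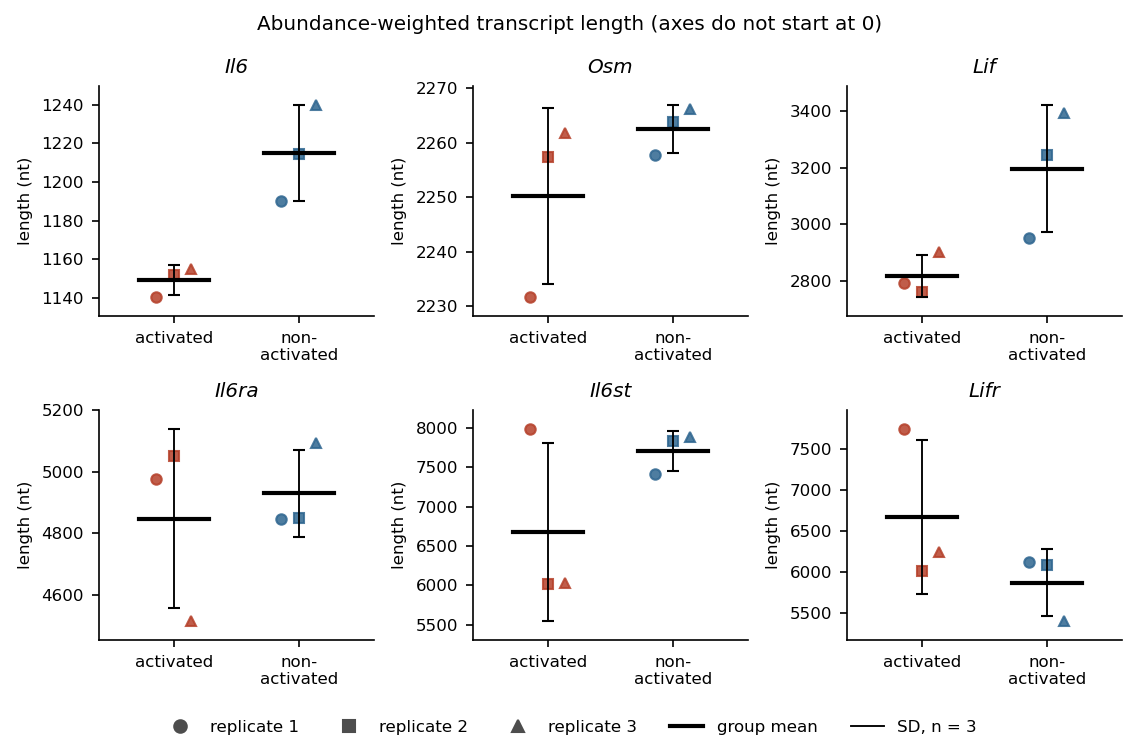
Deposited transcript length (nt, axes not starting at 0) of the 6 tested IL-6 family genes, with a point per library, activated left of non-activated, thick lines for group means and bars for the SD (n = 3). Il6 and Lif are shorter in all 3 activated libraries than in any non-activated one, and Il6st and Lifr overlap between the groups.

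The genes nearest in profile to each member were taken as the 3 with the smallest root mean square (RMS) difference of centred log2 CPM over the 6 libraries, among 13916 genes. For Il6 they were Phf6 (RMS difference 0.06), Fam107b (0.10) and Akap2 (0.11). For Osm they were Tec (0.03), Wdr45 (0.03) and Slc36a4 (0.04). Lif had the most distant neighbours, Rras2 (0.14), Tuft1 (0.16) and Gm36099 (0.16). For Il6ra they were Pdk2 (0.04), 1810026B05Rik (0.05) and Rrp1b (0.06), and for Il6st they were Ezh1, Gm12940 and Tmbim1 (0.03 each). Lifr was nearest to Palld (0.07), Wnt6 (0.09) and Uhrf1 (0.11). All but Tuft1 and Gm36099 passed the edgeR threshold in the same direction as their member. These genes were picked for matching the member in the same 6 libraries, so a shared direction follows from the choice.

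Other ligand genes related to the family, most of them for ligands that use gp130, were led by the subunits of IL-27, which signals through Il27ra and gp130. Il27, its p28 subunit, stood at 29.7, 36.0 and 32.2 CPM in activated replicates 1, 2 and 3, against 1.79, 2.23 and 1.42 CPM in the non-activated replicates. It was 18.0-fold higher (edgeR adjusted p = 3.33e-06), a larger change than that of Il6. Ebi3, the partner subunit, averaged 522 ± 22.1 CPM in activated cells, against 121 ± 17.5 CPM in non-activated cells (SD, n = 3 each), 4.30-fold higher (edgeR adjusted p = 1.52e-05). Clcf1, a ligand of the CNTF receptor, averaged 16.9 ± 2.41 CPM in activated cells, against 8.03 ± 0.79 CPM in non-activated cells (SD, n = 3 each), 2.10-fold higher (edgeR adjusted p = 0.0011). Of 9 such genes 3 could be tested, and these 3 were higher, as were 15.9% of all genes tested. Il31, whose product signals without gp130, was at 0 in all libraries, and Il11, Cntf, Ctf1 and Ctf2 were below the filter.

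Of 5 related receptor chains, 3 were tested and 0 passed edgeR's threshold, 1 of them with an unadjusted p under 0.05. The share of all genes tested that passed was 27.6%. Il27ra, the specific chain of the IL-27 receptor, averaged 1.87 ± 0.22 CPM in activated cells, against 1.37 ± 0.45 CPM in non-activated cells (SD, n = 3 each; log2 fold change 0.44, 95% confidence interval -0.31 to 1.19, edgeR adjusted p = 0.364). Il31ra, which pairs with Osmr to bind IL-31, averaged 1.16 ± 0.62 CPM in activated cells, against 2.48 ± 0.96 CPM in non-activated cells (SD, n = 3 each; log2 fold change -1.08, edgeR adjusted p = 0.107). It passed without activated replicate 1 (-1.59, edgeR adjusted p = 0.0369) and with the replicate number as a block (-1.14, edgeR adjusted p = 0.0165). Il11ra1, the IL-11 receptor, had a log2 fold change of -0.19 (95% confidence interval -0.81 to 0.43, edgeR adjusted p = 0.649). Il11ra2 was at 0 in all libraries, and Cntfr had at most 1 count in a library.

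**Figure D4:**
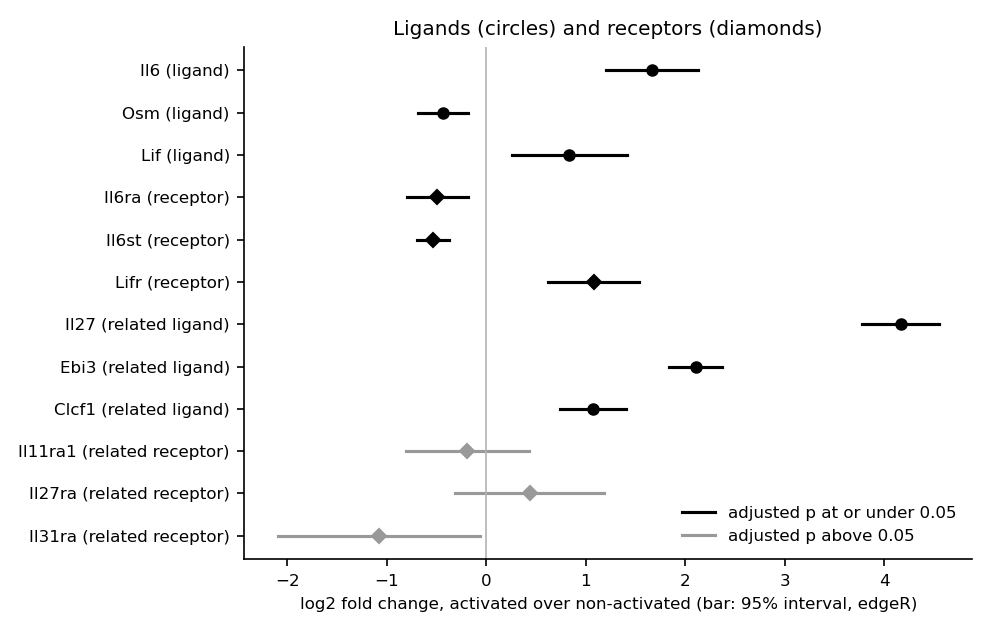
Log2 fold change of activated over non-activated cells for the tested ligands (circles) and receptors (diamonds), with edgeR's 95% confidence interval as a bar, black where the adjusted p was at or under 0.05 and grey above. Il27 lies highest (4.17), Il6, Lifr and Lif lie above 0 (1.66, 1.08 and 0.84), and Osm, Il6ra and Il6st lie below 0 (-0.43, -0.49 and -0.53).

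Among 18 Janus kinases, STATs and adaptors of the pathway, 3 were higher and 1 was lower, against 15.9% and 11.7% of all genes tested. The list's median log2 fold change was -0.07. Stat5a, a transcription factor activated by many cytokines, averaged 651 ± 62.7 CPM in activated cells, against 312 ± 30.5 CPM in non-activated cells (SD, n = 3 each), 2.09-fold higher (edgeR adjusted p = 0.000313). Ptpn11, the SHP2 phosphatase recruited to gp130, was 1.68-fold higher (edgeR adjusted p = 0.000338). Gab2, an adaptor that binds SHP2, averaged 110 ± 9.71 CPM in activated cells, against 197 ± 9.15 CPM in non-activated cells (SD, n = 3 each), 1.80-fold lower (edgeR adjusted p = 0.00029). Stat3, the main STAT of gp130 signalling, averaged 331 ± 33.8 CPM in activated cells, against 348 ± 25.1 CPM in non-activated cells (SD, n = 3 each) and did not pass (log2 fold change -0.07, 95% confidence interval -0.30 to 0.16, edgeR adjusted p = 0.641).

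Of 11 inhibitors and shedding proteases 10 were tested, and 4 were higher and 1 was lower, against 15.9% and 11.7% of all genes tested. The list's median log2 fold change was 0.14. Socs3, the feedback inhibitor that binds gp130, stood at 414, 534 and 507 CPM in activated replicates 1, 2 and 3, against 264, 320 and 260 CPM in the non-activated replicates. It was 1.73-fold higher (edgeR adjusted p = 0.00255), and Socs1, an inhibitor of Janus kinases, was 1.73-fold higher as well (edgeR adjusted p = 0.00227). Ptpn6, the SHP1 phosphatase, was 2.08-fold higher (edgeR adjusted p = 6.05e-05). Ptpn2, a phosphatase of STATs and Janus kinases, was 1.37-fold lower (edgeR adjusted p = 0.00578). Adam17, a protease that sheds the IL-6 receptor, was also higher, and leaving out either non-activated replicate 2 or 3 ended that call (edgeR adjusted p = 0.0602 and 0.0566), as did both TPM scales.

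Among 18 genes known as STAT3 targets in other cells, 4 were higher and 2 were lower, against 15.9% and 11.7% of all genes tested. The list's median log2 fold change was 0.14. Bcl2l1, which encodes the survival protein BCL-XL, averaged 347 ± 53.2 CPM in activated cells, against 71.1 ± 6.82 CPM in non-activated cells (SD, n = 3 each), 4.87-fold higher (edgeR adjusted p = 1.65e-05). Bcl3, a nuclear IkappaB protein, was 2.27-fold higher (edgeR adjusted p = 2.36e-05). Hif1a and Il10 were the others that were higher, and leaving out non-activated replicate 2 or 3 ended the call of Il10 (edgeR adjusted p = 0.0517 and 0.0648). Il10 was low, at 3.64, 0.932 and 1.18 CPM in activated replicates 1, 2 and 3, against 0.419, 0.336 and 0.203 CPM in the non-activated replicates. Its highest library, activated replicate 1, had most T cell receptor RNA. The part of that RNA, or of that library's dendritic cell marker levels, was not tested. Vegfa, which encodes an angiogenic growth factor, averaged 271 ± 60.9 CPM in activated cells, against 746 ± 154 CPM in non-activated cells (SD, n = 3 each), 2.75-fold lower (edgeR adjusted p = 0.00101). Fos, a subunit of AP-1, was 1.69-fold lower (edgeR adjusted p = 0.00382).

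Among 13 genes known to control Il6 transcription or RNA stability, 1 was higher and 6 were lower, against 15.9% and 11.7% of all genes tested. The list's median log2 fold change was -0.42. The gene that was higher was Nfkbiz, which encodes IkappaB-zeta, a nuclear factor needed for Il6 induction in macrophages. Rel, the c-Rel subunit of NF-kappaB, stood at 241, 166 and 174 CPM in activated replicates 1, 2 and 3, against 414, 350 and 391 CPM in the non-activated replicates, 1.99-fold lower (edgeR adjusted p = 0.00175). Lower genes also included RNA-binding proteins that shorten the life of cytokine RNA. Zfp36, which encodes tristetraprolin, averaged 208 ± 29.8 CPM in activated cells, against 298 ± 9.03 CPM in non-activated cells (SD, n = 3 each), 1.43-fold lower (edgeR adjusted p = 0.00918). Zc3h12c, a relative of regnase-1, was 1.41-fold lower (edgeR adjusted p = 0.00333), and Rc3h2, the roquin-2 gene, was 1.36-fold lower (edgeR adjusted p = 0.00429). Zfp36l1 and Zfp36l2 were lower too. Zc3h12a, the regnase-1 gene itself, did not pass (log2 fold change 0.14, edgeR adjusted p = 0.287). Nor did Rc3h1, the roquin-1 gene (-0.13, edgeR adjusted p = 0.381). Rc3h2 lost its call on both TPM scales, Zfp36l1 on both TPM scales and in 4 of the 6 fits without a library (edgeR adjusted p up to 0.108), and Zfp36l2 without non-activated replicate 1 (edgeR adjusted p = 0.0622). Of the 65 genes tested over all these lists 15 were higher and 10 were lower, against 15.9% and 11.7% of all genes tested. The median log2 fold change over the 65 was 0.02.

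**Figure D5:**
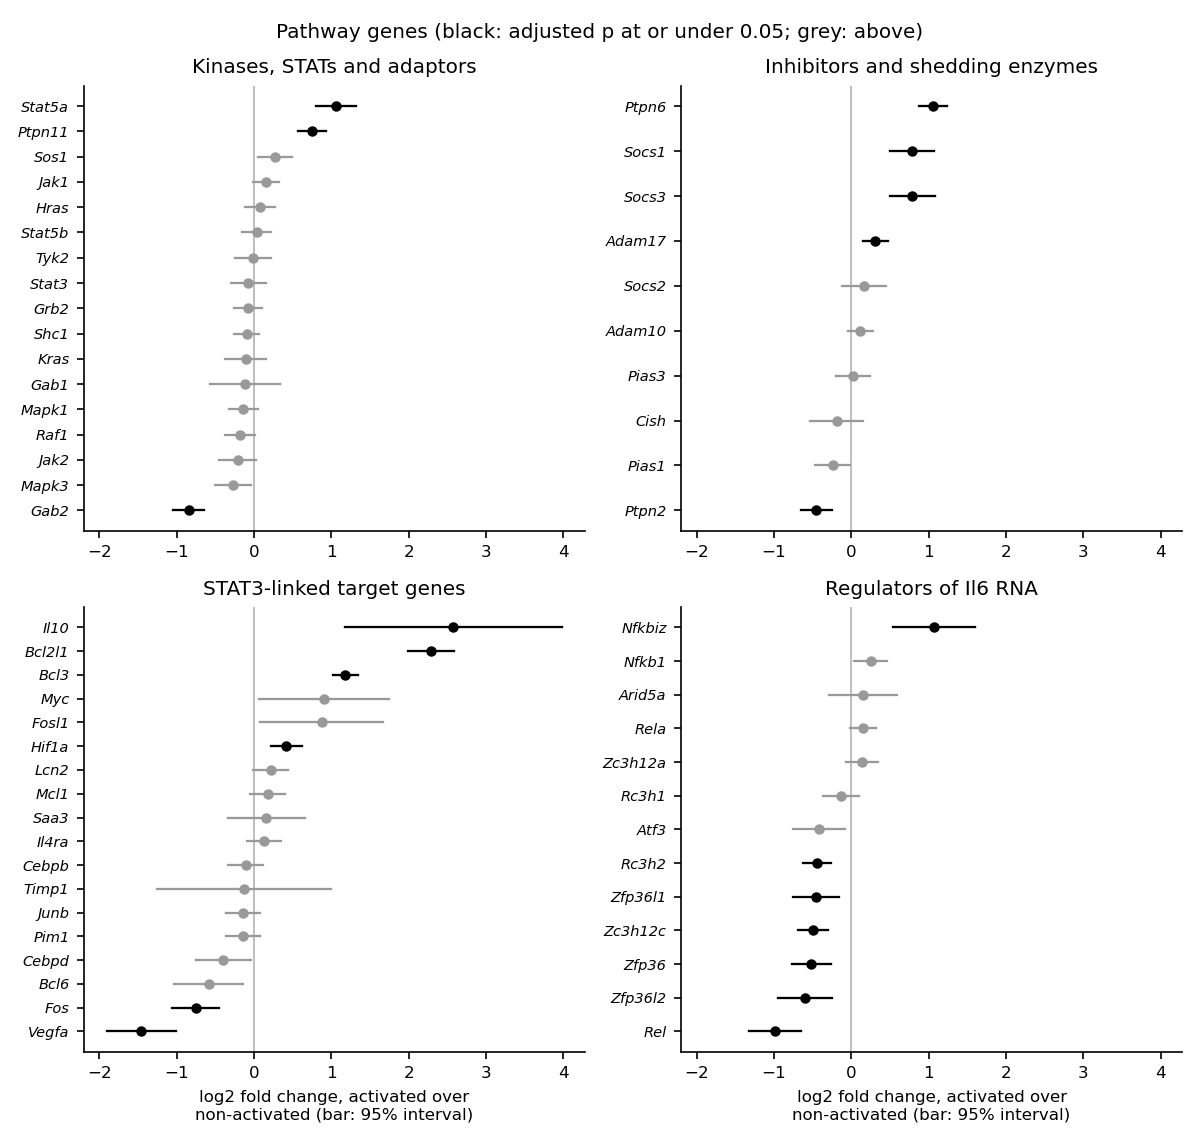
Log2 fold change of activated over non-activated cells for tested genes of 4 pathway lists, with edgeR's 95% confidence interval as a bar, black where the adjusted p was at or under 0.05 and grey above. Of the 13 regulators of Il6 RNA, 6 lie below 0 in black and 1, Nfkbiz, lies above 0 in black. Over all genes tested these shares were 11.7% and 15.9%.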

How the data were processed

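Gene expression was measured by RNA-seq in 3 activated and 3 non-activated libraries. The 4 ATAC-seq samples were not analysed here. Per the labels' protocols, the NEBNext Ultra kit was used, with single-end sequencing. Strand is not stated, so reads of overlapping genes on opposite strands cannot be told apart. Per the file headers, the authors deposited RSEM gene tables with an expected count, TPM, FPKM, length and effective length per gene. FPKM was not used. The submitters' processing notes name GRCm38. The names of the deposited RNA tables instead carry a human build, although their gene identifiers are mouse Ensembl identifiers. The reference build of the RNA reads is therefore not settled here. No aligner of the RNA reads is named in the sources used here.

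In R 4.3.3, edgeR 4.0.16 was run on rounded expected counts, with filterByExpr by group, TMM scaling and the quasi-likelihood test (glmQLFTest) of group, with no other term. Benjamini-Hochberg adjusted p-values over all 13946 tested genes were called at 0.05. Standard errors (SE) are the log2 fold change over the root of F. The common biological coefficient of variation was 16.9%. Ratios and lengths were compared by exact permutation tests with SciPy 1.17.1. The edgeR fit was tested on simulated data with 200 changed genes, and the permutation test on small cases with a known answer. Promoter windows and coordinates came from RefSeq on GRCm38.p6, and 6 of the 7 members had a window.

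Samples with equal replicate numbers in the titles were the more alike in these data. Deviations from group means correlated at 0.398, 0.313 and 0.187 for equal numbers and at -0.315 to 0.0402 for others. Within a group the deviations cancel, so these values depend on each other, and pairing was not tested. What a number marks is not stated. Alternatives were RLE factors, raw library sizes, other filters, DESeq2 1.42.0, a replicate block, leaving out each library, and limma 3.58.1 on log2(TPM + 1), on log2(TPM + 0.1) and, chosen after seeing the data, on log2(CPM + 1).

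The members, gene lists and tests were chosen with earlier results of these data known. Named were the 7 members, list genes that passed (values for at most 4 per list), related ligands and receptors, markers, and for each member the 3 genes of nearest profile. Stat3, Zc3h12a and Rc3h1, which did not pass, and the levels of Il10 were given in addition. Some genes counted in the lists are not reported here by name.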

Additional observations from a re-analysis of the deposited data

How the results depend on the processing

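No member changed direction under any of the 15 alternatives, and Il6 passed under all of them. With the replicate block, the paired form of the model, 5184 genes passed (37.2%), 3 members higher and 3 lower, and no member's call changed. In total 2664 to 5184 genes passed. With raw library sizes, 44.1% of called genes were higher, against 57.6% with TMM factors, and the median of all genes shifted by less than 0.1. Leaving out a library gave 1586 to 1956 higher and 1061 to 1673 lower genes, and 2 to 3 members higher and 1 to 3 members lower, the lowest counts of lower genes without non-activated replicate 2 and of lower members without non-activated replicate 1. On both TPM scales 1 member was lower, Osm. Log2 fold changes without a library ranged from -0.54 to -0.36 for Osm, 0.44 to 1.02 for Lif and -0.57 to -0.36 for Il6ra. Lif missed the threshold with raw library sizes (0.76) and on log2(CPM + 1) (0.74). On log2(TPM + 1) and log2(TPM + 0.1), Il6ra (-0.40 and -0.46), Il6st (-0.31 and -0.32) and Lifr (0.56 and 0.85) also missed it. On log2(CPM + 1), Il6st (-0.53) and Lifr (0.95) passed. The Lifr to Il6st log2 ratio difference was 1.22 on TPM and 1.63 on CPM. Il11ra1 ranged from -0.50 to 0.043 without a library, above 0 without activated replicate 1 (0.043) or non-activated replicate 2 (0.015). The cause of these changes was not tested. With 3 libraries a group, exact permutation tests cannot go below p = 0.10, and low levels such as those of Osmr are limited by depth.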
